A study of Homo sapiens with 9 samples.

Results

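The 5 alpha-globin locus genes HBZ, HBM, HBA2, HBA1 and HBQ1 were described in RNA-seq of K562-FIRE cells, as the 5 rows with these symbols on chromosome 16 among the 58347 rows of one table of read counts. The rule goes by gene name. K562 is a human erythroleukaemia line that makes haemoglobin of the embryonic and fetal kind. All 9 libraries come from cells that stably carry a lentiviral EF1a dCas9 2A Blast construct, EF1a MS2-Fkbp(1x) 2A Hygro and a lentiviral EF1a SS18-Frb PGK Puro construct, so the control cells express these 3 fusions too. dCas9 binds at a guide RNA without cutting, and rapamycin joins Fkbp to Frb, which brings SS18, a subunit of the BAF chromatin remodeller, to the guide's site. The 4 groups were HBG1 promoter sgRNA with DMSO (n = 3), HBG1 promoter sgRNA with 10 nM rapamycin (n = 3), a non-targeting (NT) sgRNA with 10 nM rapamycin (n = 2, replicates 1 and 2) and NT sgRNA with DMSO (n = 1, replicate 2), each for 24 h. The study asked whether BAF brought to the HBG1 promoter activates HBG1, a beta-like gene on chromosome 11, so no alpha-globin gene was a target. The labels do not say that replicates were separate cultures, and p-values measure the spread between these libraries only.

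Haemoglobin is assembled from alpha-like chains, encoded on chromosome 16, and beta-like chains, encoded on chromosome 11. Within the alpha cluster HBZ encodes the embryonic zeta chain, HBA2 and HBA1 encode the same fetal and adult alpha chain, and HBM and HBQ1 encode the mu and theta chains, for which no place in a haemoglobin is established. The cluster is activated in erythroid cells by enhancers upstream of it, most of them inside introns of the neighbouring gene NPRL3, through factors such as GATA1, NFE2 and KLF1.

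In GENCODE 29 (GRCh38) the 5 genes lie on the plus strand in the order HBZ (chr16:152687-154503), HBM (chr16:153892-166768), HBA2 (chr16:172876-173710), HBA1 (chr16:176680-177522) and HBQ1 (chr16:180453-181181), and the HBZ pseudogene HBZP1 (chr16:163122-165156) lies inside the annotated span of HBM. Each of the 6 has a second exon of 205 bases, which is coding sequence in the 5 genes. These exons show which rows can be told apart by sequence. Capitals mark the bases that differ from the HBZ exon at the same position, on the plus strand.
HBZ exon 2, chr16:153892-154096: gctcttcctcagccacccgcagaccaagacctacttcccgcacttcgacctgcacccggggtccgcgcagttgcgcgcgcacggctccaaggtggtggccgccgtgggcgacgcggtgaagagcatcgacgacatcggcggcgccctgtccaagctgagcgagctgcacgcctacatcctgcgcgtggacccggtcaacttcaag
HBM exon 2, chr16:166268-166472: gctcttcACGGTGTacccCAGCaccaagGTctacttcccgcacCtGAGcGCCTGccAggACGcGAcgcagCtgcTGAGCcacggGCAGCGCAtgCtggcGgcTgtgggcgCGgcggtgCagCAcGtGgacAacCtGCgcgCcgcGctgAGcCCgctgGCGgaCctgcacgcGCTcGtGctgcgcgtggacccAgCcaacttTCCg
HBA2 exon 2, chr16:173125-173329: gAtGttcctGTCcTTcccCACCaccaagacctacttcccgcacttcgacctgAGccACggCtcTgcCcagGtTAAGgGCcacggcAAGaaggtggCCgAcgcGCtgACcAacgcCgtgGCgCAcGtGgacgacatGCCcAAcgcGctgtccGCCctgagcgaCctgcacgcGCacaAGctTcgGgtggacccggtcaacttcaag
HBQ1 exon 2, chr16:180666-180870: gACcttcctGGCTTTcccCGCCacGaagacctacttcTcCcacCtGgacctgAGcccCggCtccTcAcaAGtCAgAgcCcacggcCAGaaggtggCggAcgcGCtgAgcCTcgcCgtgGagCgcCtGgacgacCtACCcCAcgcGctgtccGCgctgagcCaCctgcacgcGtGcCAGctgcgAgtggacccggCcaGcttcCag
The HBZP1 exon (chr16:164482-164686) is identical to that of HBZ, with 0 differences, and the HBA1 exon (chr16:176929-177133) is identical to that of HBA2. The HBM exon differs from HBZ at 76 bases (62.93% identity), HBA2 at 59 (71.22%) and HBQ1 at 64 (68.78%), and HBQ1 differs from HBA2 at 40 (80.49%). The sequence comes from the GENCODE 29 transcripts and not from reads.

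The annotation also joins rows by position. The identical exons of HBZ and HBZP1 are both annotated as first exons of longer HBM transcripts, so 205 of the 755 exon bases of HBZ and 410 of the 916 of HBM are shared with another gene. The HBA1 and HBA2 transcripts compared (577 and 576 bases) are 96.55% identical, with an identical run of 480 bases. HBQ1 shares no exon base with another gene, and its longest identical run with HBA2 is 16 bases. How reads in shared exons or with several matches were counted is not given in the sources used here. Read counts of HBM were 1.067 to 1.103 times those of HBZ in the 9 libraries, HBA1 was 1.054 to 1.073 times HBA2, and HBZP1 was 0.387 to 0.448 times HBZ. The 5 rows thus hold 3 sets whose counts can be told apart: HBZ with HBM, HBA2 with HBA1, and HBQ1. In what follows, counts of the 5 rows are not counts of 5 independent genes, and the level of HBM itself cannot be told apart from that of HBZ.

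**Figure D1:**
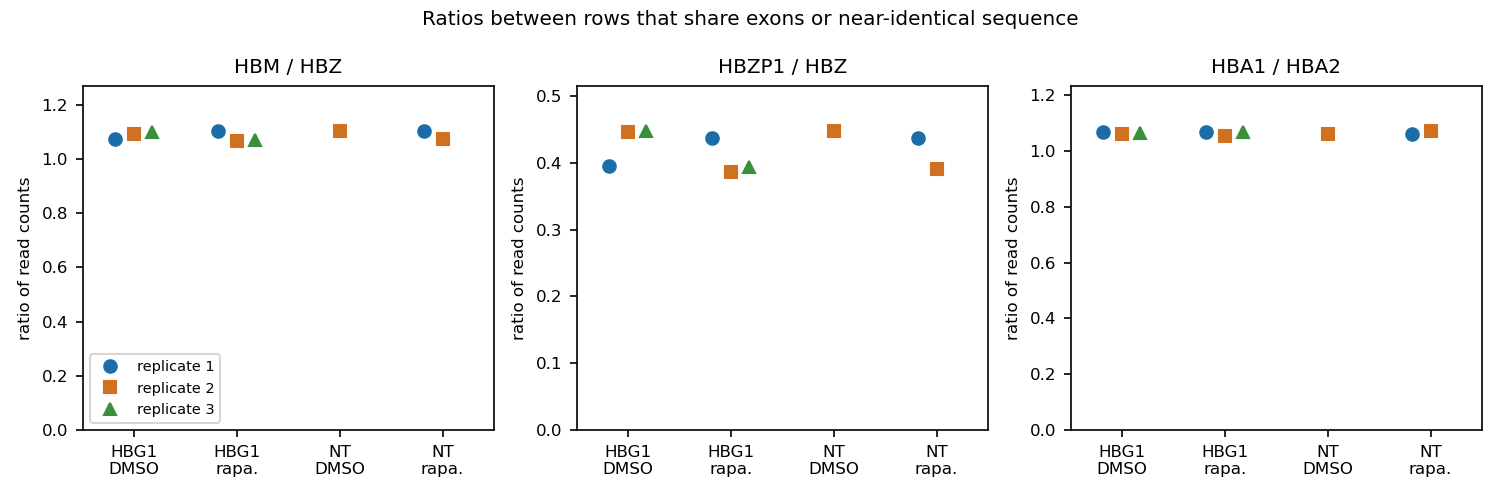
Ratios of read counts (y axis, from 0) for HBM over HBZ, HBZP1 over HBZ and HBA1 over HBA2 in the 9 libraries (points, by guide and treatment on the x axis; shapes are replicate numbers). HBM over HBZ stayed between 1.067 and 1.103 and HBA1 over HBA2 between 1.054 and 1.073, while HBZP1 over HBZ ran from 0.387 to 0.448.

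The libraries held 19797409 to 31619671 counts. Replicate 1 with the HBG1 sgRNA stood apart under both treatments. Chi-square values per gene were 16.5 to 18.6 for pairs of replicates that include it and 4.74 to 7.91 for the others. No library was thus a repeat of another in its group. Libraries of different groups were not compared in this way, nor was the single NT DMSO library. The targeted gene HBG1 was at 137 to 436 CPM (read counts scaled to a common library size, by TMM) with its sgRNA and DMSO, 1530 to 2450 with its sgRNA and rapamycin, 8230 in the NT DMSO library and 8850 to 8940 with NT sgRNA and rapamycin. All 10 erythroid markers were above 1 CPM in every library, with a summed level of 1710 to 1930 CPM under HBG1 sgRNA with DMSO, 1740 to 2020 with rapamycin, 1760 to 1970 under NT sgRNA with rapamycin and 1740 in the NT DMSO library. TFRC alone was at 668 to 825 CPM, so the sum can hide changes of single markers. Of the erythroid markers tested below, GATA1, NFE2 and ALAS2 were called higher with rapamycin under the HBG1 sgRNA, and KLF1 and AHSP were not called. The megakaryocyte list had 2 of 6 markers above 1 CPM throughout and PF4 at 0, with a sum of 36.5 to 46 under HBG1 sgRNA with DMSO and 43.4 to 65.7 with rapamycin. The granulocyte and monocyte list had 1 of 6 markers (LYZ, 14 to 29 CPM) above 1 CPM throughout, with MPO, ELANE and CSF3R at or near 0. Its sum was 19.7 to 21.2 CPM under HBG1 sgRNA with DMSO and 21.8 to 30.7 with rapamycin, without overlap, 14.7 to 23.9 under NT sgRNA with rapamycin and 18 in the NT DMSO library. Its part in the rapamycin comparison below was not tested. Over all libraries, 2 of 5 lymphocyte markers (5.56 to 8.93) and 3 of 4 fibroblast and epithelium markers (46.9 to 67.8, KRT5 at 0) passed 1 CPM throughout. In bulk RNA, fewer cells of a type and less RNA per cell cannot be told apart.

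The levels of the 5 rows differed widely. Per kilobase of annotated exon, HBA1 (11500 to 18200 CPM per kb over the 9 libraries) and HBA2 (10900 to 17200) were highest, HBZ (2370 to 4720) and HBM (2150 to 4290) followed, and HBQ1 (47 to 100) was far lower. HBZ stood at 0.198 to 0.275 of HBA2 per length, and HBQ1 at 0.321% to 0.638%. These shares divide HBA2 by 827 merged exon bases, while the HBA2 transcript used for the sequences has 576. With the shorter length both shares would be lower. The ranges of HBA1 and HBA2 over the libraries overlap, as do those of HBZ and HBM. Per kb of merged exon, HBA1 was above HBA2 and HBZ above HBM in each of the 9 libraries. The order of HBZ and HBM depends on the length used. HBM is divided by 916 bases, 410 of them shared, while its transcript used for the sequences has 506. With 506 bases HBM would lie above HBZ. The ranges of the 3 sets do not overlap. The 5 rows together took 2.27% to 3.61% of all counts.

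For HBZ, the zeta-chain gene, the HBG1 sgRNA libraries had 2780, 2000 and 1870 CPM under DMSO and 3560, 2450 and 2050 CPM under rapamycin (replicates 1, 2 and 3). The NT sgRNA libraries had 1790 CPM under DMSO and 2590 and 2120 CPM under rapamycin. Replicate 1 with the HBG1 sgRNA was the highest of its group under both treatments, and the 2 groups overlap. HBM, read with the limits above, had 2980, 2190 and 2060 CPM under HBG1 sgRNA with DMSO and 3930, 2620 and 2190 CPM with rapamycin. With NT sgRNA it had 1970 CPM under DMSO and 2850 and 2270 CPM under rapamycin, the same order of libraries as HBZ within each group.

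For HBA2, one of the 2 alpha-chain genes, the HBG1 sgRNA libraries had 11500, 9050 and 9650 CPM under DMSO and 14200, 11900 and 10500 CPM under rapamycin. The NT sgRNA libraries had 9290 CPM under DMSO and 13400 and 11700 CPM under rapamycin. Its copy HBA1 had 12300, 9620 and 10300 CPM under HBG1 sgRNA with DMSO and 15200, 12600 and 11200 CPM with rapamycin. In the NT sgRNA libraries HBA1 was at 9860 CPM under DMSO and at 14200 and 12600 CPM under rapamycin. In both rows the highest DMSO library with the HBG1 sgRNA lay above the lowest rapamycin library, so those groups overlap, while the NT DMSO library lay below every rapamycin library of either guide.

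HBQ1, the theta-chain gene, was the one member whose treatment groups did not overlap with the HBG1 sgRNA. It had 35.7, 25.3 and 25.6 CPM under DMSO and 53.7, 41.4 and 43.4 CPM under rapamycin. The NT sgRNA libraries had 25.2 CPM under DMSO and 27.9 and 37.4 CPM under rapamycin, all below the lowest HBG1 sgRNA rapamycin library. These levels rest on 521 to 1335 reads per library, against 196270 to 355493 for HBA2. Of all tested genes, 25.3% had treatment groups without overlap with the HBG1 sgRNA, 12.2% in the higher direction.

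**Figure D2:**
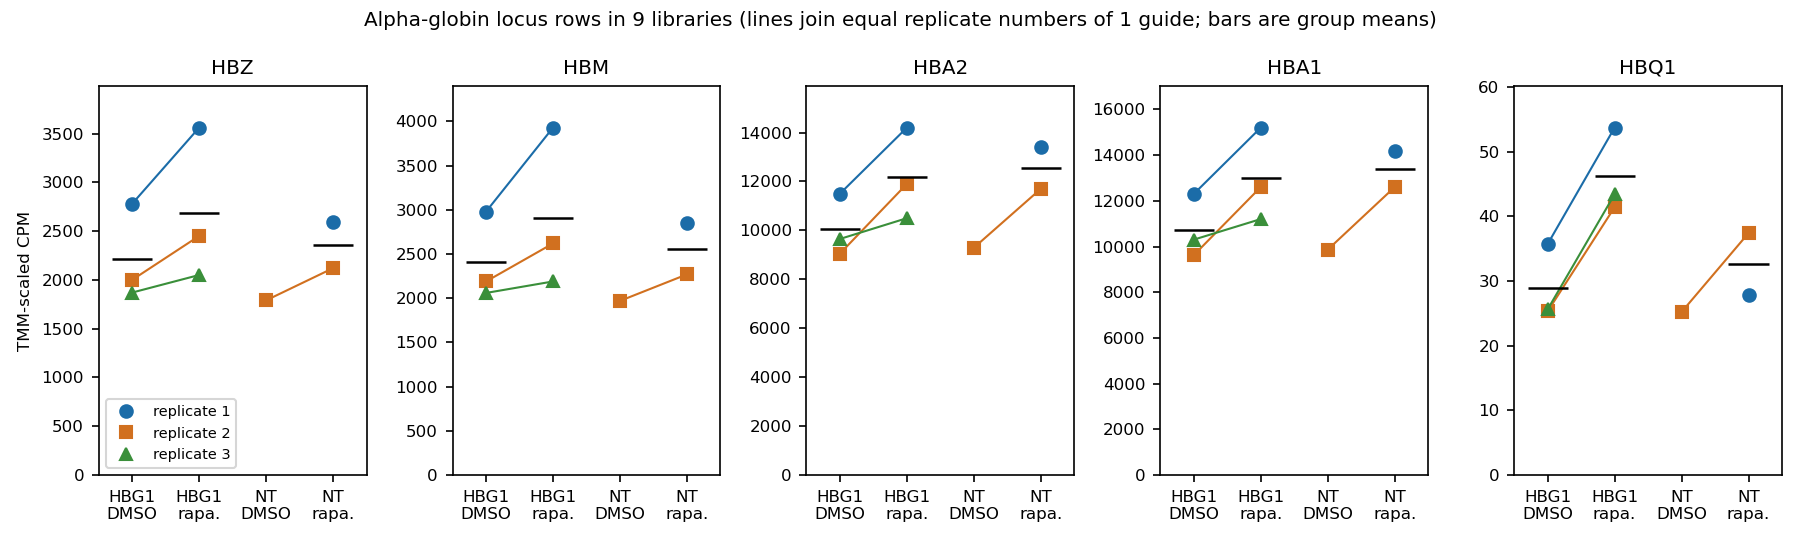
TMM-scaled CPM (y axis, linear from 0, a scale of its own in each panel) of the 5 rows in the 9 libraries by guide and treatment (HBG1 and NT name the sgRNA; rapa. is rapamycin). Lines join libraries of equal replicate number within a guide, and horizontal bars are group means. Every line climbs from DMSO to rapamycin, and only in HBQ1 do all 3 HBG1 sgRNA rapamycin libraries (41.4 to 53.7) lie above all 3 DMSO libraries (25.3 to 35.7).

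Rapamycin against DMSO with the HBG1 sgRNA compares cells with and without recruitment to the HBG1 promoter. Rapamycin itself inhibits the kinase complex mTORC1, and with one guide the drug and the recruitment cannot be told apart. HBQ1 rose from 28.9 ± 5.89 to 46.2 ± 6.59 CPM (SD, n = 3 each), a log2 fold change of 0.67 with an SE of 0.145 (edgeR adjusted p = 0.0111). Adjusted p-values here are from edgeR's quasi-likelihood fit, by the Benjamini-Hochberg method across all genes tested. HBZ went from 2220 ± 491 to 2690 ± 785 CPM, a log2 fold change of 0.28 (SE 0.165) that was not called (edgeR adjusted p = 0.372). HBM gave 0.27 (SE 0.169, edgeR adjusted p = 0.392). HBA2 went from 10100 ± 1290 to 12200 ± 1870 CPM, a log2 fold change of 0.28 (SE 0.102, edgeR adjusted p = 0.123), and HBA1 gave 0.27 (SE 0.102, edgeR adjusted p = 0.126). With the HBA1 and HBA2 counts summed, the log2 fold change was 0.28 (edgeR adjusted p = 0.119). One row, HBQ1, was thus called of the 5, where 6.80% of all tested genes were called, 2.75% higher and 4.05% lower.

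Same-numbered libraries with the HBG1 sgRNA deviated together, and with the replicate number as a block all 5 rows were called higher. The blocked log2 fold changes were 0.27 for HBZ (SE 0.0572, edgeR adjusted p = 0.00294), 0.26 for HBM (SE 0.0601, 0.00582), 0.28 for HBA2 (SE 0.0572, 0.00209), 0.28 for HBA1 (SE 0.0563, 0.002) and 0.69 for HBQ1 (SE 0.0809, 1.24e-05). The summed HBA1 and HBA2 row gave 0.28 with an adjusted p of 0.00164 in that edgeR fit. In the blocked fit 17.1% of all tested genes were called, 7.43% higher and 9.62% lower. The block left the sizes of the changes nearly as they were and lowered their standard errors.

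Pairs, here libraries of equal replicate number, show the sizes behind these fits. HBZ changed by 0.36, 0.29 and 0.13 on the log2 scale in pairs 1, 2 and 3. HBA2 changed by 0.30, 0.40 and 0.12, and HBQ1 by 0.59, 0.71 and 0.76. The third pair had the smallest change for HBZ, HBM, HBA2 and HBA1 but the largest for HBQ1. In the single NT sgRNA pair, replicate 2, the changes were 0.24 for HBZ, 0.20 for HBM, 0.34 for HBA2, 0.35 for HBA1 and 0.57 for HBQ1. All 5 rows were higher in 3 of 3 HBG1 sgRNA pairs, as were 22.6% of all tested genes, and all 5 were also higher in the NT sgRNA pair, as were 17.5% of all tested genes.

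**Figure D3:**
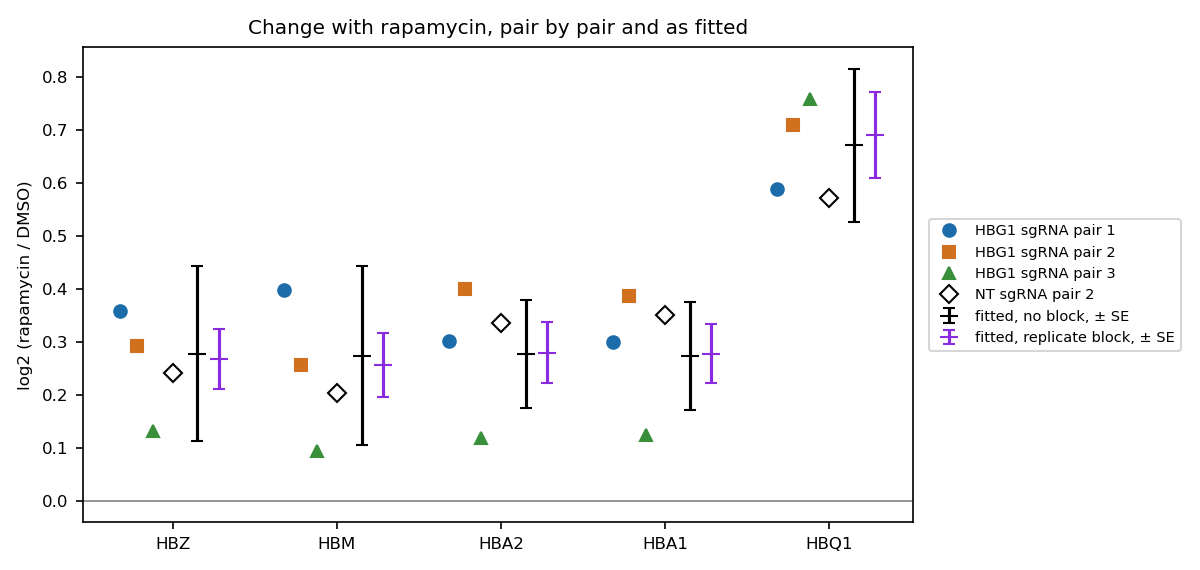
Log2 ratio of rapamycin to DMSO (y axis) for the 5 rows in each HBG1 sgRNA pair (filled symbols), in the single NT sgRNA pair (open diamonds) and as fitted with and without the replicate block (bars, ± SE). All pairs lie above 0, HBQ1 lies between 0.57 and 0.76, and the other 4 rows lie at 0.40 or below.

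Single libraries moved the unblocked values. The HBQ1 call was lost without HBG1 sgRNA DMSO replicate 2 (log2 fold change 0.58, edgeR adjusted p = 0.0675) or replicate 3 (0.59, 0.0626), and without both libraries of pair 2 (0.65, 0.0736) or pair 3 (0.64, 0.144). HBA2 and HBA1 were called without HBG1 sgRNA DMSO replicate 1 (0.39 and 0.38, edgeR adjusted p = 0.0244 and 0.0236). Without HBG1 sgRNA rapamycin replicate 1, HBZ gave 0.02 and HBM gave -0.0017, and without pair 1 the blocked call of HBM was lost (0.18, edgeR adjusted p = 0.0544). The blocked call of HBQ1 held under all 8 alternatives to that fit, pair omissions among them (highest edgeR adjusted p = 0.000529).

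With the NT sgRNA, rapamycin against a single DMSO library has no test. The log2 fold changes from the same fit were 0.39 for HBZ, 0.37 for HBM, 0.44 for HBA2, 0.44 for HBA1 and 0.37 for HBQ1. The difference between the changes with each guide, the interaction, was -0.12 for HBZ (95% interval -0.749 to 0.518), -0.16 for HBA2 (-0.551 to 0.231) and 0.30 for HBQ1 (-0.263 to 0.856). In edgeR 0 of 5 rows passed for the interaction, 0 had an unadjusted p under 0.05, and DESeq2 called 0, beside 0.00422% of all tested genes called by edgeR. For HBZ, HBA2 and HBQ1 the intervals reach differences larger than their whole change with rapamycin under the HBG1 sgRNA (0.28, 0.28 and 0.67). They rest on 1 NT DMSO library, which adds no spread of its own.

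Between guides under rapamycin, no row passed. HBZ was at 2690 ± 785 CPM with the HBG1 sgRNA (SD, n = 3) and 2350 ± 331 with NT (n = 2), a log2 fold change of 0.19 (95% interval -0.201 to 0.586, edgeR adjusted p = 0.875). HBM gave 0.19 (edgeR adjusted p = 0.884). HBA2 was at 12200 ± 1870 and 12600 ± 1200 CPM, a log2 fold change of -0.04 (-0.285 to 0.198, edgeR adjusted p = 0.957), and HBA1 gave -0.05 (edgeR adjusted p = 0.955). HBQ1 was at 46.2 ± 6.59 and 32.7 ± 6.73 CPM, a log2 fold change of 0.50 (0.152 to 0.846, edgeR adjusted p = 0.773, unadjusted p = 0.00769), and its 2 groups did not overlap, as was so for 22.6% of all tested genes. By edgeR 0 of 5 rows were called beside 0.0296% of all tested genes (0.0169% higher and 0.0127% lower), 1 row (HBQ1) had an unadjusted p under 0.05, and DESeq2 called 0. This comparison shares its HBG1 sgRNA rapamycin libraries with the treatment comparison above. Under DMSO, with 1 NT library and no test, the log2 differences were 0.31 for HBZ, 0.29 for HBM, 0.12 for HBA2, 0.12 for HBA1 and 0.20 for HBQ1.

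Beta-like chains are the partners of alpha-like chains. With the HBG1 sgRNA, HBG1 and HBG2 rose under rapamycin by 2.71 and 2.67 on the log2 scale (edgeR adjusted p = 7.23e-05 and 2.21e-05), and HBD and HBB fell by 1.16 each (0.000285 and 0.0308). HBE1, the embryonic epsilon gene, was not called (0.17, edgeR adjusted p = 0.723), was called with the replicate block (0.16, 0.0423), and was below 0 without HBG1 sgRNA rapamycin replicate 1 (-0.21) or DMSO replicate 3 (-0.001). The HBB call was lost without HBG1 sgRNA DMSO replicate 1 (0.142) or 3 (0.064) or rapamycin replicate 2 (0.113) or 3 (0.15), without pair 2 (0.0625) or 3 (0.23), with DESeq2 (0.108) and in an edgeR fit of the 6 HBG1 sgRNA libraries alone without a block (0.0512). With the replicate block HBB was called (log2 fold change -1.15, edgeR adjusted p = 6.41e-06). Under rapamycin all 5 passed between guides: HBE1 was higher with the HBG1 sgRNA by 1.89 on the log2 scale (edgeR adjusted p = 0.0122), HBD by 4.72 (3.32e-09) and HBB by 3.18 (0.0136), while the fetal genes HBG1 (log2 fold change -2.20, 0.00499) and HBG2 (-2.13, 0.000318) were lower. With an NT rapamycin library left out, 2 of these 5 were called, whichever of the 2 libraries it was: the calls of HBE1, HBG1 and HBB were lost without replicate 1 (edgeR adjusted p = 0.376, 0.151 and 0.484) and without replicate 2 (0.451, 0.0911 and 0.451). The HBG1 call was also lost without HBG1 sgRNA rapamycin replicate 2 (0.0597). HBG1 and HBG2 are near-identical copies, the annotated spans of HBE1 and HBG2 overlap, and reads may be divided among them.

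Counted together, the 5 beta-like rows took 0.824% to 2.36% of library counts. The ratio of alpha-like to beta-like counts was 2.2, 2.6 and 2.92 with HBG1 sgRNA and DMSO and 1.97, 2.39 and 1.92 with HBG1 sgRNA and rapamycin. It was 1.07 in the NT DMSO library and 1.4 and 1.23 with NT sgRNA and rapamycin. All 6 HBG1 sgRNA libraries lay above all 3 NT libraries, and in each HBG1 sgRNA pair the ratio was lower under rapamycin, while in the NT pair it was higher. Counting only HBZ, HBA2 and HBQ1 over the same 5 beta-like rows, so that each alpha-like set entered once, gave ratios from 0.516 to 1.41 over the 9 libraries. HBG1 and HBG2, also near-identical copies, both stayed in the beta-like sum. These ratios therefore compare libraries and do not give the balance of alpha-like to beta-like RNA. HBE1 made up 54.6% to 91.4% of beta-like counts with the HBG1 sgRNA and 9.44% to 12.6% with NT. HBA2 stood at 0.935 to 1.52 times the HBE1 counts with the HBG1 sgRNA and 4.51 to 4.89 times with NT.

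**Figure D4:**
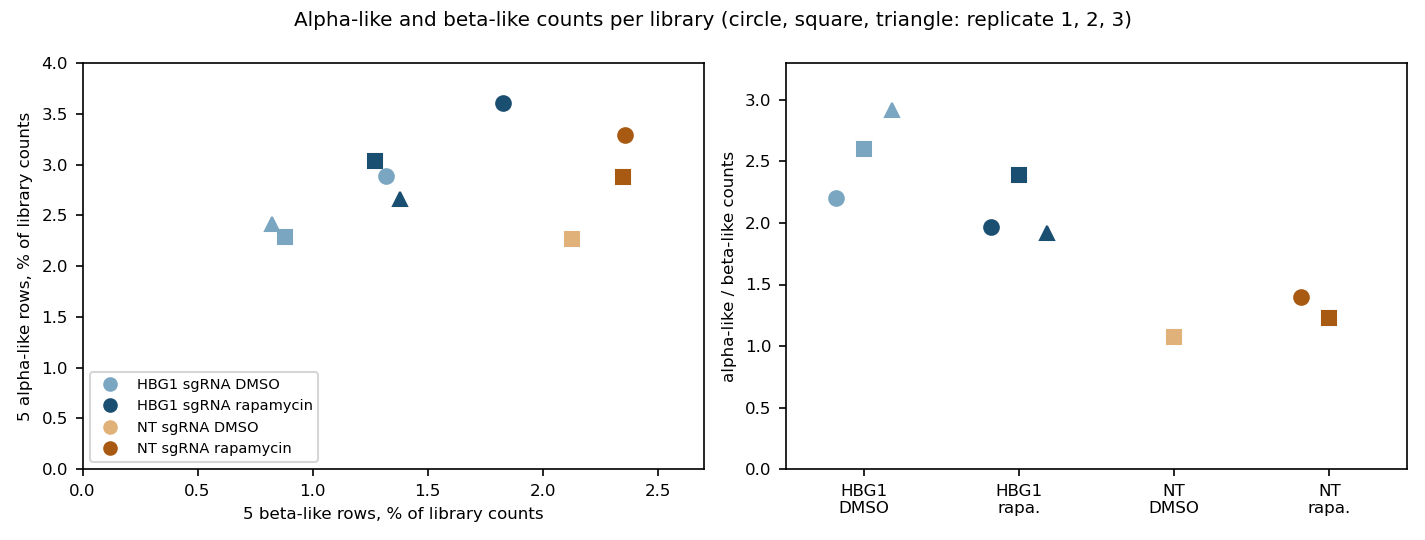
Left, counts of the 5 alpha-like rows against those of the 5 beta-like rows, both as a percent of library counts (axes from 0), for the 9 libraries. Right, their ratio by guide and treatment. The 6 HBG1 sgRNA libraries have ratios of 1.92 to 2.92 and the 3 NT libraries 1.07 to 1.4.

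Around the cluster, 47 other annotated genes with a midpoint within 500 kb were tested. With the HBG1 sgRNA, rapamycin against DMSO gave calls for 7 of them: 5 rose, 2 fell and 40 were not called. Over all tested genes 2.75% were called higher and 4.05% lower. The median log2 fold change of the neighbours was 0.134, beside 0.0196 over all tested genes. FAM234A rose from 44.2 ± 0.601 to 67.5 ± 2.26 CPM (SD, n = 3 each, log2 fold change 0.61, edgeR adjusted p = 0.000306), and AC004754.1, whose annotated span overlaps FAM234A, rose by 0.65 (0.000496). RHBDF1, which encodes an inactive rhomboid protease, rose by 0.60 (0.0065), and PIGQ, a gene of GPI anchor synthesis, by 0.35 (0.0241). NPRL3, which holds the enhancers in its introns and encodes a subunit of an mTORC1 inhibitor complex, rose from 114 ± 9.49 to 144 ± 11.8 CPM (log2 fold change 0.34, edgeR adjusted p = 0.02). Farther upstream POLR3K, a subunit of RNA polymerase III, fell by 0.47 (0.00426), and SNRNP25, a spliceosome protein gene, fell by 0.34 (0.02). Both genes that fell lie upstream, as do RHBDF1 and NPRL3, which rose, and the called genes downstream of the cluster rose. With the replicate block CAPN15, downstream of the cluster, was called lower (log2 fold change -0.21, edgeR adjusted p = 0.0241).

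The calls of FAM234A, AC004754.1, RHBDF1 and POLR3K held with any one of the 9 libraries left out. With both libraries of a pair left out, RHBDF1 was not called without pair 2 (log2 fold change 0.40, edgeR adjusted p = 0.133) or pair 3 (0.68, 0.0646), and POLR3K was not called without pair 2 (0.0621) or pair 3 (0.0575). NPRL3 lost its call without HBG1 sgRNA DMSO replicate 2 (edgeR adjusted p = 0.119) or 3 (0.0791). SNRNP25 lost its call without HBG1 sgRNA DMSO replicate 1 (0.0602) or 2 (0.0856) or rapamycin replicate 3 (0.112). PIGQ lost its call without HBG1 sgRNA DMSO replicate 2 (0.139) or 3 (0.0859) or rapamycin replicate 2 (0.0793) or 3 (0.0567). These 3 genes also lost their calls without pair 2 (0.156, 0.0962 and 0.277) and without pair 3 (0.149, 0.153 and 0.168). The neighbour count fell from 7 to 4 without HBG1 sgRNA DMSO replicate 2, and was 2 without pair 2 and 2 without pair 3. With the replicate block, 8 of 44 neighbours rose and 3 fell, beside 7.43% and 9.62% of all tested genes. Between guides under rapamycin edgeR called 0 of 47 neighbours (3 at an unadjusted p under 0.05, 0 by DESeq2), and 0 for the interaction (2 at an unadjusted p under 0.05, 0 by DESeq2).

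**Figure D5:**
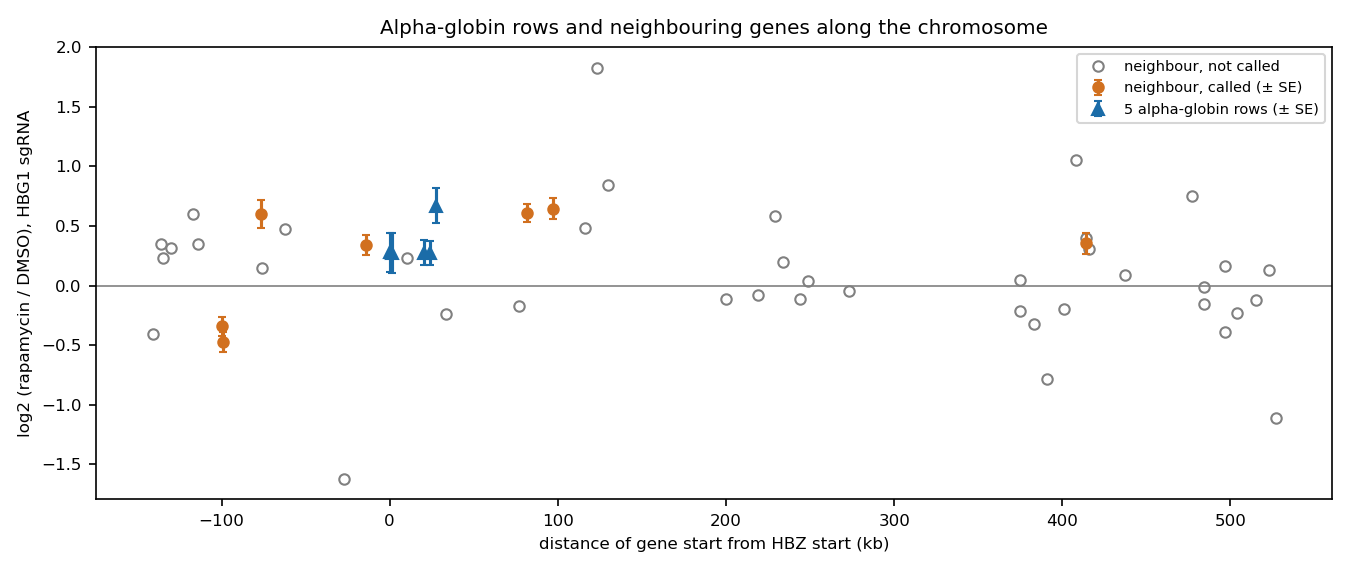
Fitted log2 ratio of rapamycin to DMSO under the HBG1 sgRNA (y axis) against the distance of each gene's transcription start from that of HBZ in kb (x axis), for the 5 alpha-globin rows (triangles, ± SE) and 47 neighbours (circles; filled with ± SE where called). The 5 alpha-globin rows lie between 0.27 and 0.67, and the called neighbours lie between -0.474 and 0.645.

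Of 14 factors known to act at the alpha-globin cluster, 2 rose with rapamycin under the HBG1 sgRNA, 0 fell and 12 were not called, beside 2.75% called higher and 4.05% lower of all tested genes. Their median log2 fold change was 0.0441, beside 0.0196 over all tested genes. NFE2, a subunit of a factor that binds globin enhancers, rose from 226 ± 25.8 to 295 ± 26.2 CPM (SD, n = 3 each, log2 fold change 0.39, edgeR adjusted p = 0.0144), and GATA1, the erythroid master regulator, from 198 ± 13.5 to 246 ± 24.2 CPM (0.31, 0.0326). KLF1, an erythroid activator of globin genes, was not called (0.05, edgeR adjusted p = 0.822). Both calls were lost without HBG1 sgRNA DMSO replicate 2 (edgeR adjusted p = 0.086 for NFE2 and 0.146 for GATA1) or replicate 3 (0.0806 and 0.13). GATA1 also lost its call without HBG1 sgRNA rapamycin replicate 1 (0.0853) or 3 (0.0567) or NT sgRNA rapamycin replicate 2 (0.0501). Neither gene was called without pair 2 (0.107 and 0.159) or pair 3 (0.157 and 0.201). With the replicate block 3 of 14 rose and 1 fell, beside 7.43% and 9.62% of all tested genes. LMO2, an adaptor in the GATA1 complex, was added at 0.26 (edgeR adjusted p = 0.00914) and TCF3, an E protein of that complex, at -0.21 (0.024). Between guides edgeR and DESeq2 each called 0 of 14 (3 at an unadjusted p under 0.05 by edgeR), and for the interaction each called 0 (0 at an unadjusted p under 0.05).

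Alpha chains need haem and, before they meet a beta-like chain, the chaperone AHSP. Of 12 genes of haem supply and haemoglobin assembly, 4 rose with rapamycin under the HBG1 sgRNA, 0 fell and 8 were not called, beside 2.75% called higher and 4.05% lower of all tested genes. Their median log2 fold change was 0.198, beside 0.0196 over all tested genes. ALAS2, the erythroid enzyme of the first step of haem synthesis, rose from 109 ± 22.3 to 175 ± 37.7 CPM (SD, n = 3 each, log2 fold change 0.68, edgeR adjusted p = 0.0127). PPOX, an enzyme of a late step, rose by 0.64 (0.00941), SLC25A37, the mitochondrial iron importer, by 0.57 (0.0325) and UROS, another haem enzyme, by 0.35 (0.0411). AHSP was at 4.18 to 12.3 CPM over the 9 libraries and was not called (0.04, edgeR adjusted p = 0.965), and its 95% interval of -0.663 to 0.746 includes changes as large as that of HBQ1. With the replicate block 7 of 12 rose and 0 fell, beside 7.43% and 9.62% of all tested genes. Between guides edgeR and DESeq2 each called 0 of 12 (1 at an unadjusted p under 0.05 by edgeR), and for the interaction each called 0 (0 at an unadjusted p under 0.05).

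The haem gene calls leaned on single libraries. Without HBG1 sgRNA DMSO replicate 2, 0 of 12 were called, with adjusted p of 0.0761 for ALAS2, 0.0594 for PPOX, 0.154 for SLC25A37 and 0.16 for UROS in edgeR. Without HBG1 sgRNA DMSO replicate 3, 1 was called, and ALAS2 was at 0.0686, SLC25A37 at 0.122 and UROS at 0.179. Without HBG1 sgRNA rapamycin replicate 1, SLC25A37 was at 0.0848 and UROS at 0.08. UROS lost its call in 7 of 9 such fits, also without HBG1 sgRNA rapamycin replicate 2 (0.0502) or 3 (0.127) and NT sgRNA rapamycin replicate 1 (0.0561) or 2 (0.0575). Without pair 2 only PPOX of the 4 kept its call (ALAS2 0.0696, SLC25A37 0.138, UROS 0.172), and without pair 3 none did (ALAS2 0.118, PPOX 0.114, SLC25A37 0.146, UROS 0.346). With DESeq2 SLC25A37 was not called (adjusted p = 0.115).

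The profile of each set over the 9 libraries was compared with 11460 genes of a mean log2 CPM of at least 3 by the root mean square difference of centred log2(CPM + 1), where 0 is an identical profile. For HBZ the nearest genes outside the 5 were its pseudogene HBZP1 (0.0899), CCDC26 (0.11) and MAGEC1 (0.116), and for HBM they were HBZP1 (0.0714), CCDC26 (0.114) and CCDC88B (0.118). For HBA1 and HBA2 summed they were AL592183.1 (0.0615), PIK3C3 (0.0679) and PINK1-AS (0.0694), and for HBQ1 TMEM54 (0.122), EAPP (0.13) and ZNF517 (0.136). HBM was 0.0192 from HBZ, with which it shares exons, HBA2 was 0.154 from HBZ, and HBQ1 was 0.27 from HBZ and 0.274 from HBA2. By this measure HBQ1 was farther from the other sets than they were from each other. The 9 libraries fall into few groups, so genes that move with treatment or with one library come out near each other.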

How the data were processed

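The deposited file is a table of raw read counts, with a row for each Ensembl gene ID and a column for each library. Per the submitters' processing notes, which give no role or order, the tools were STAR 2.7.3a, featureCounts, Subread 2.0.0, R 4.1.2, limma 3.34.9 and edgeR 3.24.0 with GRCh38/hg38. Annotation release, strand setting and treatment of reads with several matches are not given in the sources used here. Per the labels' protocols, RNA was poly-T selected and prepared with a NEBNext Ultra kit.

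Symbols, exons and sequences come from GENCODE 29, which holds 58039 of the 58347 IDs (99.47%). Tests used edgeR 4.0.16 (R 4.3.3): filterByExpr at a minimum count of 10 (23675 genes), TMM (factors 0.977 to 1.02), and one quasi-likelihood fit of all 9 libraries with a mean per group. Genes were called at an adjusted p under 0.05 over all tested genes. CPM are TMM-scaled, and per-kb values divide by merged exon length.

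For HBG1 sgRNA libraries of equal number, deviations from the group means correlated at 0.553, 0.278 and 0.231 (11498 genes), above the limit of 0.1. The blocked fit of those 6 libraries (20179 genes) is therefore given beside the unblocked one. No correlation was computed between libraries of unequal number, and replicate 1 stood apart under both treatments. Centring then moves replicates 2 and 3 together in both groups, so these values do not show how replicates 2 and 3 pair. Across guides the correlations for equal numbers were -0.0676 and -0.0687.

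The members and lists were chosen with earlier results of these data known. Named genes are the 5 members, the 5 beta-like genes, of each other list up to 4 called genes per direction by size plus AHSP, and the 3 nearest profiles. NPRL3, CAPN15, KLF1, LMO2 and TCF3 lie outside this rule and were picked with their values known. Alternatives were other scalings, no filter, DESeq2 1.42.0, other designs and libraries left out. The fits were tested on simulated data.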

Additional observations from a re-analysis of the deposited data

How the results depend on the processing

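The changes of the 5 rows with rapamycin under the HBG1 sgRNA kept their direction under all 22 alternatives, except HBM, which was at -0.0017 without HBG1 sgRNA rapamycin replicate 1. Leaving out 1 library in turn gave 0.0217 to 0.474 for HBZ, -0.0017 to 0.457 for HBM, 0.154 to 0.385 for HBA2, 0.148 to 0.384 for HBA1 and 0.551 to 0.856 for HBQ1, and 0 to 3 rows called. Without a filter on low counts HBZ (0.279), HBM (0.275), HBA2 (0.278) and HBA1 (0.275) were also called, 5 rows in all. With the filter their sizes were nearly the same (0.278, 0.274, 0.277 and 0.274), so these calls came without larger changes. The share of all genes called without the filter is not given here. The replicate block called 5 with the 6 HBG1 sgRNA libraries (0.268, 0.256, 0.280, 0.278; summed HBA1 and HBA2 0.279) and 5 with all 9 (0.262, 0.250, 0.273, 0.270). An additive model of guide and treatment called 3, with HBA2 at 0.326 and HBA1 at 0.325. Without pair 1, 3 were called (HBA2 0.261, HBA1 0.257), and without pair 2 or 3, 0 were (HBQ1 0.652 and 0.637). The blocked HBM value without pair 1 was 0.179. Over all genes 1609 were called: 664 to 1731 with 1 library left out, 441 without pair 2, 162 without pair 3, 3441 with the block of 6 libraries and 3263 in the additive model.

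Between guides under rapamycin, leaving out 1 library gave -0.0634 to 0.356 for HBZ, -0.0889 to 0.358 for HBM, -0.166 to 0.0581 for HBA2, -0.171 to 0.05 for HBA1 and 0.302 to 0.725 for HBQ1. HBZ and HBM turned without pair 1 (-0.0639, -0.0894). HBA2 and HBA1 turned without pair 3 (0.0594, 0.0539), in the additive model (0.0174, 0.0182) and with the replicate block (0.0146, 0.0094). HBQ1 was called without a filter (0.496), 1 row of 5. Over all genes 7 were called: 3 to 8 with 1 library left out, 91 without a filter, 13 with DESeq2, 37 without pair 1, 12 without pair 3, 13 in the additive model and 21 with the block. For the interaction HBZ and HBM turned with the block over all 9 libraries (0.0902, 0.110) and within each guide (0.0188, 0.0460), and leaving out 1 library gave -0.371 to 0.0807 and -0.376 to 0.082. Over all genes 1 was called: 0 to 4 with 1 library left out, 0 scaled by total counts, 8 without a filter, 0 with DESeq2, 4 without pair 1, 0 without pair 2, 3 with the block over all 9 libraries and 5 within each guide.

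For the lists under rapamycin with the HBG1 sgRNA, leaving out 1 library gave 4 to 9 neighbours, 0 to 3 regulators and 0 to 5 haem genes called. Without pairs 2 and 3 these were 2 and 2, 0 and 0, and 1 and 0, and with the block 11, 4 and 7. Regulators were 4 with DESeq2 and 4 in the additive model. Beta-like calls between guides were 2 to 5 with 1 library left out. In the interaction 1 beta-like gene (HBG2) was called: 0 to 2 with 1 library left out, 0 scaled by total counts, 3 without a filter, 0 with DESeq2, 2 without pair 1, 0 without pair 2, and 2 and 3 with the 2 blocks. HBE1 with rapamycin ran from -0.21 to 0.493 with 1 library left out, below 0 without HBG1 sgRNA rapamycin replicate 1 (-0.21) or DMSO replicate 3 (-0.001). AHSP ran from -0.623 to 0.356 with 1 library left out and was -0.31 without pair 1 and -0.0336 and -0.0242 with the blocks. Pair omissions were chosen after seeing the data. Where a group is left with 1 library, its spread is assumed to be that of the others. The cause of these shifts was not tested. Shared reads and 1 NT DMSO library limit what the rows can show, and HBQ1 rests on 521 to 1335 reads per library.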

Other observations

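The pseudogene HBZP1 did not keep a constant share of HBZ. Its counts were 0.395, 0.446 and 0.448 of those of HBZ with HBG1 sgRNA and DMSO (replicates 1, 2 and 3) and 0.438, 0.387 and 0.394 with HBG1 sgRNA and rapamycin. With NT sgRNA they were 0.437 and 0.391 under rapamycin (replicates 1 and 2) and 0.448 under DMSO. The 9 values fall into 2 separate ranges, 0.387 to 0.395 and 0.437 to 0.448, and each range holds libraries of both treatments and of both guides. In every pair, the NT pair included, the rapamycin and DMSO libraries lie in different ranges. The rapamycin value was the lower in HBG1 sgRNA pairs 2 and 3 and in the NT pair, and the higher in pair 1. Any part of this split in the rapamycin changes of HBZ and HBM was not tested. In the 4 libraries of the lower range HBM was 1.067 to 1.073 times HBZ, and in the other 5 it was 1.093 to 1.103 times HBZ. The HBZP1 change with rapamycin was 0.51, 0.09 and -0.06 on the log2 scale in HBG1 sgRNA pairs 1, 2 and 3, where HBZ gave 0.36, 0.29 and 0.13. HBA1 over HBA2 (1.054 to 1.073) does not separate the same libraries.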
